A study of Rattus norvegicus with 4 samples.

Results

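The genes described here encode the proteins of the mitochondrial ribosome. They were taken as every feature whose symbol starts with Mrpl or Mrps followed by a digit, with names of pseudogene copies left out, which gave 74 of the 32402 features. Of these, 46 belong to the large subunit and 26 to the small subunit. Mrps30 and Mrps18a were counted with the large subunit in spite of their names. Mrps21l was placed in neither subunit, and nor was Mrps36, which is known as a component of the α-ketoglutarate dehydrogenase complex and is a member by its symbol alone. Mitochondrial ribosome proteins with other symbols, among them Mrp63 (Mrpl57), Dap3 and Ptcd3, fall outside the rule.

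Mitochondria translate their own small genome with a ribosome whose RNA comes from mitochondrial DNA and whose proteins are all encoded in the nucleus and imported. Its products are core subunits of the respiratory chain and the ATP synthase, which are completed with nuclear-encoded subunits. Tubule cells of the kidney, above all those of the proximal tubule and the thick ascending limb, are rich in mitochondria because their transport of salt depends on oxidative ATP production. One group of these ribosomal proteins has bacterial counterparts, and another is found in mitochondria only.

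RNA was captured with the 10x Visium assay on frozen kidney sections, each 10 µm thick, of Sprague-Dawley rats, with 1 section in each of 4 groups. The PAN rat had been injected with puromycin aminonucleoside, a podocyte toxin that produces nephrotic disease, and had eaten ad libitum. The PAN_LS-FMD rat had the same injection and then 6 cycles of LS-FMD, a fasting-mimicking diet low in salts. Both were examined 6 weeks after the treatment period and 5 months after the toxin. The healthy_LS-FMD rat had no toxin and was refed for 72 h after a single diet cycle. The healthy rat had neither toxin nor diet. Each spot of the slide takes RNA from several neighbouring cells, and levels are UMIs (unique molecular identifiers, 1 for each captured RNA molecule) per 1000000 UMIs of the same spots, written CPM. With 1 section per group there is no test anywhere below. The 95% intervals are exact and cover counting error only, and a difference between groups is one between these sections.

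The sections kept 2724 (PAN), 2187 (PAN_LS-FMD), 2593 (healthy_LS-FMD) and 2866 (healthy) spots with 24924170, 34965670, 25330872 and 58568499 UMIs. Between 1650 and 2279 spot barcodes recurred in each pair of sections, as barcodes mark fixed positions on every slide. The PAN section stood apart in its cell markers. The 10 tubular injury genes summed to 21093 CPM there, against 776 in PAN_LS-FMD, 1890 in healthy_LS-FMD and 888 in healthy, with Krt20 at 0 in both PAN groups. The 10 macrophage genes summed to 6549 CPM in PAN and to between 1220 and 1489 CPM elsewhere, and the 6 proximal tubule S3 genes to 1953 CPM in PAN and to between 7102 and 7831 CPM elsewhere. The healthy_LS-FMD section held more deep medulla, with 5 inner medulla genes at 216 CPM against 31.2 CPM in healthy. The 5 red blood cell genes summed to 8818 CPM in healthy and to between 925 and 1519 CPM elsewhere. The part of these differences in the results was not tested. Spots were divided into 56 regions by clustering each section alone, and the regions were joined into cortex, outer stripe (the outermost layer of the medulla, where the S3 segment lies) and medulla by marker scores.

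In each of the 4 sections 70 of the 74 members had at least 50 UMIs. Mrpl49 had between 21 and 41 UMIs, Mrps10 between 3 and 11 and Mrps21l between 1 and 4. Mrpl53 had 0 UMIs in all 4 sections, which allows a level of up to 0.12 CPM in PAN, 0.0858 CPM in PAN_LS-FMD, 0.118 CPM in healthy_LS-FMD and 0.0512 CPM in healthy. The median member had 82.6 CPM in PAN, 93.2 CPM in PAN_LS-FMD, 102 CPM in healthy_LS-FMD and 98.7 CPM in healthy. Levels of different genes are not compared with each other here, because capture at the 3′ end differs from gene to gene.

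RefSeq, on its rat assembly GRCr8, listed 73 of the 74 symbols, and its promoter table held 58 of them, with 60 start sites. Each window runs from 250 bases before the start to 50 bases after it. The letters GCGC, any base and then TGCGC, a motif of NRF1, a regulator of nuclear genes for mitochondria, were found on either strand in 8 of the 60 member windows (13.3%), against 4.25% of all 33469 windows. The ETS core CCGGAAG was in 31.7% of member windows against 8.75% of all, and the YY1 core (AA, any base, ATGGC) in 35% against 6.96%. These shares describe the windows, which were not matched for base composition, and no binding was measured. The nuclear respiratory chain genes had 15.4% (NRF1), 28.8% (ETS) and 42.3% (YY1) of 52 windows. The windows of 4 members whose levels departed from the others are printed below in lower case, with motif letters in capitals, and with them that of Slc5a3, a myo-inositol transporter gene that lies within the bounds of Mrps6 on the same strand and bears on which RNA its UMIs come from. They lie at chr11:44778417-44778716 on the plus strand for Mrps6, chr11:44799537-44799836 on the plus strand for Slc5a3, chr2:32473954-32474253 on the plus strand for Mrps27, chr4:69566889-69567188 on the minus strand for Mrps33 and chr14:13663472-13663771 on the minus strand for Mrpl1, all GRCr8 and written 5′ to 3′ along the gene.
Mrps6: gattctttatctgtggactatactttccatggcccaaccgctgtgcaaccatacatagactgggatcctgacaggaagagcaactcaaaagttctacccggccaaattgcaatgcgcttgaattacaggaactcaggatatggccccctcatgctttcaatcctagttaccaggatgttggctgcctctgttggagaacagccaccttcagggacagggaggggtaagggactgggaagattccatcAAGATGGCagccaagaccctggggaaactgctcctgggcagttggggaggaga
Slc5a3: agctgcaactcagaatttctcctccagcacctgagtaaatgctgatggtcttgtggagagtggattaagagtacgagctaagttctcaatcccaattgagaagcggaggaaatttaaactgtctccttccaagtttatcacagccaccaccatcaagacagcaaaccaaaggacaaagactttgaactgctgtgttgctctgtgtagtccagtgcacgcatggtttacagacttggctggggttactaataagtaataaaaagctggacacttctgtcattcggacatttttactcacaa
Mrps27: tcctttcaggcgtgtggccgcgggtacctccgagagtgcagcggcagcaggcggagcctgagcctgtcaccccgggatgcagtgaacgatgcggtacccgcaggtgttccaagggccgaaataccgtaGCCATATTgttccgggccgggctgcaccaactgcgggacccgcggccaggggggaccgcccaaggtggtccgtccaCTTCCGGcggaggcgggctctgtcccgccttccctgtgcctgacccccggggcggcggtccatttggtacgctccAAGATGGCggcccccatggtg
Mrps33: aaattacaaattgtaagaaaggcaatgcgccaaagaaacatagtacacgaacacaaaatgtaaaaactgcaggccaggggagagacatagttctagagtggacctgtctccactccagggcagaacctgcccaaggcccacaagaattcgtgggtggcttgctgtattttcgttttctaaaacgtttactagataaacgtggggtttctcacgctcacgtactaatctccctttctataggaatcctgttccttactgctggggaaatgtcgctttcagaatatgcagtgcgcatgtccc
Mrpl1: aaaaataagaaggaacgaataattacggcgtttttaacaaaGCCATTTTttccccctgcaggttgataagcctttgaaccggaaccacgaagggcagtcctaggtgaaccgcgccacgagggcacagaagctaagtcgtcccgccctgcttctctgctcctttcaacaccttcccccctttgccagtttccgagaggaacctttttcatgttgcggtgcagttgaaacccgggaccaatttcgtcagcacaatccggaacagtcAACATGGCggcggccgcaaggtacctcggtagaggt
Mrps6 held 1 YY1 match, which begins 3 bases before the annotated start. Mrps27 held 1 ETS match and 2 YY1 matches, and Mrpl1 held 2 YY1 matches. The windows of Slc5a3 and Mrps33 held none of the 3 motifs, which says only that these letters are not in these bases.

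The first comparison asks how these transcripts stood in the kidney long after the toxin. The members together made up 6856 CPM (6823 to 6888) in PAN, 8427 CPM (8396 to 8457) in PAN_LS-FMD, 8275 CPM (8240 to 8311) in healthy_LS-FMD and 8736 CPM (8712 to 8760) in healthy. PAN was the lowest of the 4 sections, and the other three lay near each other. Most members shared the direction: 59 of the 71 with at least 20 UMIs over both sections were lower in PAN than in healthy, where 25.9% of all 13208 measured features were lower. At a difference of 1.5-fold whose interval left out 1, 8 members were lower, against 9.85% of all features, and 1 was higher, against 44.3% of all features. The share of members lower at that size was thus near that of all features, and the members stood out by their common small difference and by how few were higher. The members' median log2 ratio was -0.29, while the median of all features was 0.51, and 69 of 71 members lay below it. The call counts depend on scaling: with median-of-ratios size factors, which bring the median of all features to 0.03, 54 members were lower (20.8% of all features) and none higher (23.5% of all features), with a member median of -0.77. With healthy_LS-FMD as the control section in place of healthy, the member median was -0.24 and that of all features 0.15, so the members' distance from all features, -0.39 instead of -0.80, depended on the control section. Bulk RNA of a spot cannot tell fewer cells of a type from less RNA per cell.

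**Figure D1:**
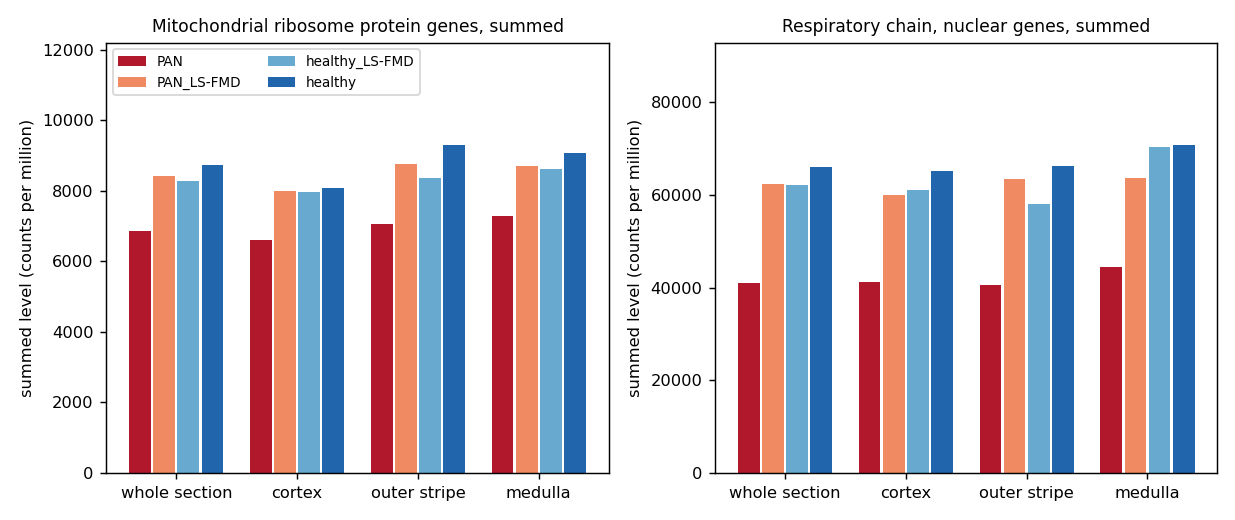
Summed level in CPM (vertical axes, from 0) of the 74 mitochondrial ribosome protein genes (left) and of the nuclear respiratory chain genes (right) in the whole section and 3 zones, with 1 bar per section and no error bars because each group had 1 section. PAN was lowest in every zone in both panels, at 6856 CPM of members in the whole section against 8736 CPM in healthy.

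The lower level was present in each zone. In cortex the members summed to 6612 CPM in PAN, 8000 CPM in PAN_LS-FMD, 7973 CPM in healthy_LS-FMD and 8075 CPM in healthy. In outer stripe the sums were 7071 CPM (PAN), 8775 CPM (PAN_LS-FMD), 8375 CPM (healthy_LS-FMD) and 9297 CPM (healthy), and in medulla 7299, 8695, 8614 and 9075 CPM in the same order of groups. The median log2 ratio of PAN to healthy was -0.23 in cortex, -0.31 in outer stripe and -0.33 in medulla. At 1.5-fold 6 of 70 members were lower in cortex (9.98% of all features), 14 of 71 in outer stripe (9.18%) and 10 of 70 in medulla (10.3%), so the share in cortex was near that of all features. PAN was also lowest where regions led by the same gene were set side by side. Regions led by Slc12a1, the salt transporter of the thick ascending limb, had 7302 CPM of members in PAN (1 region), 8374 and 8898 CPM in PAN_LS-FMD (2 regions) and 8686 and 9480 CPM in healthy (2 regions).

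The medians of both subunits were close. Against healthy, the 25 measured small subunit genes had a median log2 ratio of -0.32 in PAN and the 45 large subunit genes one of -0.29. The 42 members with bacterial counterparts had a median of -0.29 and the 28 known only from mitochondria one of -0.30.

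The nuclear respiratory chain was shifted further than its ribosome. The 76 measured nuclear subunits of complexes I to IV and the ATP synthase had a median log2 ratio of -0.61 in PAN against healthy. At 1.5-fold 42 of them were lower (9.85% of all features). They summed to 41019 CPM in PAN, 62336 CPM in PAN_LS-FMD, 62032 CPM in healthy_LS-FMD and 66072 CPM in healthy. Among them Ndufb6 of complex I stood at 116 CPM in PAN and 286 CPM in healthy, and Cox8a of complex IV at 1784 CPM in PAN and 4137 CPM in healthy. For every 1000 UMIs of nuclear respiratory chain genes there were 167 UMIs of members in PAN (166 to 168), 135 in PAN_LS-FMD (135 to 136), 133 in healthy_LS-FMD (133 to 134) and 132 in healthy (132 to 133). This ratio does not depend on how the section total was scaled. The 11 mitochondrially encoded mRNAs in the files, the templates of this ribosome, had a median log2 ratio of -0.56 in PAN against healthy, and the cytosolic ribosomal protein genes one of 0.28.

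Across the 56 regions, the members and the nuclear respiratory chain varied together within each section, with Spearman's rho of 0.77 over 13 regions in PAN, 0.81 over 13 in PAN_LS-FMD, 0.74 over 15 in healthy_LS-FMD and 0.58 over 15 in healthy. Regions of a section share a library and a total, and no p-value is attached. Against the summed mitochondrially encoded genes the members had a rho of -0.23 in PAN, -0.22 in PAN_LS-FMD, -0.45 in healthy_LS-FMD and -0.63 in healthy. Against the median UMIs per spot of a region, rho was 0.02, 0.68, 0.06 and 0.45 in the same order of groups. Members per 1000 respiratory chain UMIs ran from 143 to 196 over the regions of PAN, from 126 to 141 in PAN_LS-FMD, from 116 to 149 in healthy_LS-FMD and from 116 to 144 in healthy. In PAN the ratio was highest in a region led by the smooth muscle genes Actg2 and Myh11 (196) and in one led by Car3 and the matrix gene Postn (184), and lowest in a distal tubule region led by Klk1c9 and Slc12a3 (143).

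**Figure D2:**
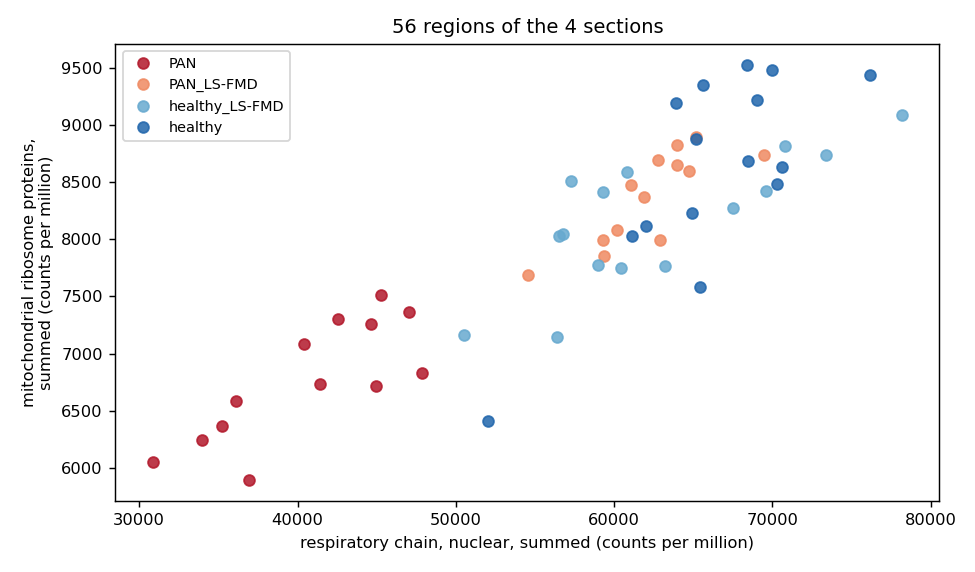
Summed level of the members (vertical axis, CPM) against that of the nuclear respiratory chain (horizontal axis, CPM) in 56 regions, 1 point per region, coloured by section; neither axis starts at 0. The PAN regions lie at the lower left, at up to 47852 CPM of respiratory chain genes, and have 143 to 196 UMIs of members per 1000 of respiratory chain.

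Other genes of mitochondrial translation had medians nearer 0 than the members. Against healthy, the median log2 ratio in PAN was 0.04 over 28 genes of mitoribosome assembly and rRNA modification (3 higher, 2 lower at 1.5-fold), -0.18 over 17 translation factors (1 higher, 2 lower), 0.12 over 18 mitochondrial aminoacyl-tRNA enzymes (2 higher, 1 lower) and 0.20 over 15 genes of mitochondrial DNA transcription and its regulators (3 higher, 1 lower). Each of these medians lay below the median of all features, 0.51. For the counts of this paragraph, 44.3% of all features were higher at 1.5-fold and 9.85% lower. Gfm1, an elongation factor, had 41 CPM in PAN and 64.9 CPM in healthy, while Mtif2, an initiation factor, had 23.9 CPM in PAN and 15.1 CPM in healthy. Tfam, which packages and transcribes mitochondrial DNA, had 70.3 CPM in PAN and 63.1 CPM in healthy, and Pprc1, a coactivator of NRF1, had 41.2 CPM in PAN and 12.2 CPM in healthy. Ppargc1a, a coactivator of mitochondrial biogenesis, was near the limit of measurement, with 24 UMIs in PAN and 84 UMIs in healthy. Of the other mitochondrial lists, 8 of 21 import genes were lower and 1 higher (median -0.31), and 4 of 15 genes of the tricarboxylic acid cycle were lower and none higher (median -0.41). Dnajc19, a part of the import motor, had 60.1 CPM in PAN and 135 CPM in healthy. Of the mitoribosome proteins with other symbols, Dap3, a GTP-binding protein of the small subunit, had 91.4 CPM in PAN and 49.2 CPM in healthy (log2 ratio 0.89), Ptcd3 had 68.8 and 46.1 CPM, and Mrp63 of the large subunit had 133 and 187 CPM.

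**Figure D3:**
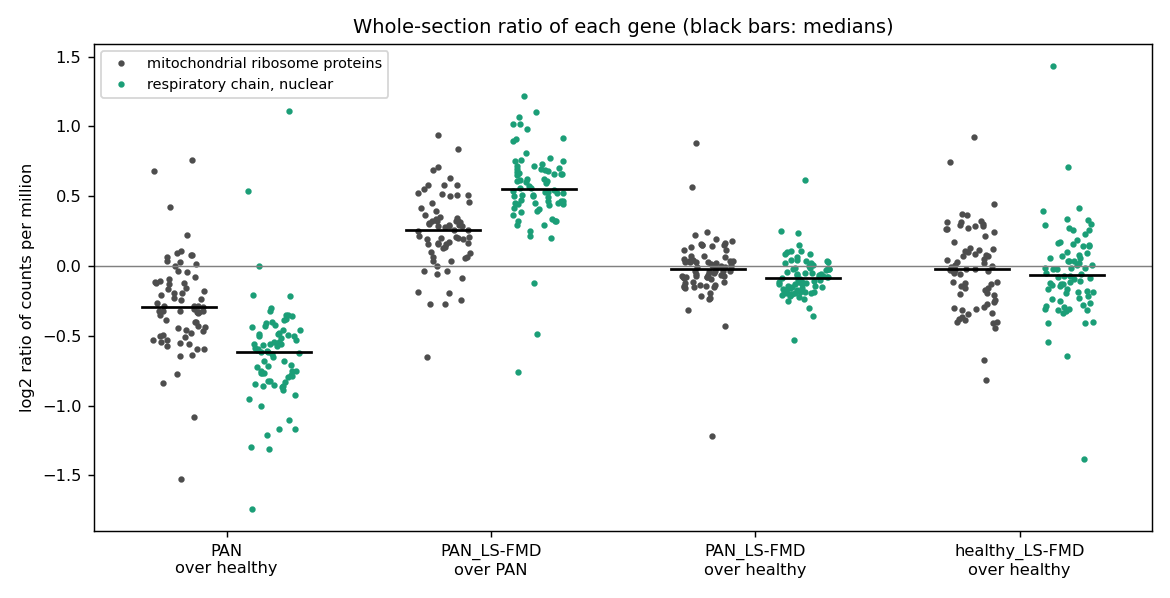
Log2 ratio of whole-section CPM (vertical axis) for each measured member (grey) and each nuclear respiratory chain gene (green) in the 4 comparisons; black bars are medians and the horizontal line is equality. In PAN over healthy the medians are -0.29 and -0.61, and in PAN_LS-FMD over PAN they are 0.26 and 0.55.

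The members lower in PAN by 1.5-fold were Mrpl43, Mrps36, Mrps33, Mrps28, Mrpl36, Mrpl16, Mrpl34 and Mrpl50. Mrps36 had 149 CPM in PAN, 286 CPM in PAN_LS-FMD, 242 CPM in healthy_LS-FMD and 316 CPM in healthy. Its log2 ratio of PAN to healthy was -1.08 (-1.13 to -1.03), which lay further from the member median than 1.5-fold, on the side of the respiratory chain. Mrps33, a small subunit protein without a bacterial counterpart, had 113 CPM in PAN, 183 CPM in PAN_LS-FMD, 127 CPM in healthy_LS-FMD and 203 CPM in healthy. The sections PAN and healthy_LS-FMD were the low pair for this gene. Mrps28, also of the small subunit, had 82.4 CPM in PAN, 128 CPM in PAN_LS-FMD, 104 CPM in healthy_LS-FMD and 141 CPM in healthy, again with PAN lowest.

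Mrpl43, a large subunit protein specific to mitochondria, had 7.70 CPM in PAN, 9.52 CPM in PAN_LS-FMD, 12.6 CPM in healthy_LS-FMD and 22.1 CPM in healthy. The healthy section was high and the other three low, and it was also the only one processed with Space Ranger 2.0.1, the others with 1.2.1; software version and group cannot be told apart here. The log2 ratio to healthy was -1.52 (-1.75 to -1.30) in PAN, -1.22 (-1.39 to -1.04) in PAN_LS-FMD and -0.82 in healthy_LS-FMD, all 3 against the same section. RefSeq places Twnk, the mitochondrial DNA helicase, over part of Mrpl43 on the opposite strand. Twnk is listed in the files under its older symbol Peo1 and had 24.3 CPM in PAN, 25.1 CPM in PAN_LS-FMD, 27.0 CPM in healthy_LS-FMD and 19.1 CPM in healthy, so healthy was the lowest section for it.

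Mrpl1 and Mrps27 stood on the other side. Mrpl1, which forms a mobile stalk of the large subunit, had 6.78 CPM in PAN, 5.95 CPM in PAN_LS-FMD, 7.62 CPM in healthy_LS-FMD and 4.01 CPM in healthy, on 169 to 235 UMIs. Healthy was again the section that differed from the other three, in the opposite direction to Mrpl43. Here too software version and group cannot be told apart. Mrps27, a small subunit protein with RNA-binding repeats, had 34.6 CPM in PAN, 29.2 CPM in PAN_LS-FMD, 33.4 CPM in healthy_LS-FMD and 25.9 CPM in healthy. Its log2 ratio of PAN to healthy was 0.42 (0.30 to 0.54), and it was positive in cortex (0.43), outer stripe (0.33) and medulla (0.53). Among members with at least 50 UMIs in both sections the next highest were Mrpl52 (log2 ratio 0.22), with 276 CPM in PAN and 237 CPM in healthy, and Mrps5 (0.11), with 51.4 and 47.8 CPM. Mrpl49, with 28 UMIs in PAN and 41 UMIs in healthy, had a log2 ratio of 0.68 whose interval (-0.07 to 1.41) included 0.

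The second comparison sets the diet after the toxin against the toxin alone. Of 71 measured members, 61 were higher in PAN_LS-FMD than in PAN, where 28.1% of all features were higher. At 1.5-fold 5 members were higher (9.67% of all features) and none lower (35.5% of all features), so the share higher at that size was not above that of all features. The median log2 ratio was 0.26 over the members, 0.55 over the nuclear respiratory chain and -0.37 over all features. With size factors 38 members were higher (17.7% of all features) and none lower (22.7% of all features), with a median of 0.61. By zone, 4 members were higher at 1.5-fold in cortex (10.1% of all features), 11 in outer stripe (8.8%) and 9 in medulla (11.2%). Because PAN enters both this comparison and the one with healthy, a level that was low in PAN appears in both, and the 2 sets of ratios are not independent.

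The 5 members were Mrps36, Mrpl36, Mrpl16, Mrps33 and Mrps28. Mrpl36, a small protein of the large subunit, had 120 CPM in PAN, 214 CPM in PAN_LS-FMD, 152 CPM in healthy_LS-FMD and 188 CPM in healthy. PAN_LS-FMD was the highest section for it, with a log2 ratio to PAN of 0.83 (0.77 to 0.90). Mrpl16 of the large subunit had 105 CPM in PAN, 171 CPM in PAN_LS-FMD, 183 CPM in healthy_LS-FMD and 163 CPM in healthy, with PAN alone low. At the other end, among members with at least 50 UMIs in both sections, stood Mrpl52 with a log2 ratio of -0.28, Mrps6 with -0.27, Mrps27 with -0.25 and Mrpl14 with -0.20. Dap3 was lower as well, with 56.5 CPM in PAN_LS-FMD and 91.4 CPM in PAN.

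Set against healthy, the members of PAN_LS-FMD lay close to equality. Of 72 measured members, 32 were higher and 40 lower, where 66.2% of all features were higher and 33.8% lower. At 1.5-fold, none was higher (6.8% of all features) and only Mrpl43 lower (4.53% of all features). The median log2 ratio was -0.02 over the members, -0.09 over the nuclear respiratory chain, 0.11 over all features and -0.42 over the mitochondrially encoded genes. With size factors the member median was -0.16 and the median of all features -0.02. Against healthy_LS-FMD in place of healthy, the member median was -0.03 and that of all features -0.20, so the members then lay above all features. Without replicates, nearness of 2 sections does not show that the groups are alike.

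The third question concerns the diet without the toxin. In healthy_LS-FMD 32 of 71 members were higher and 39 lower than in healthy, where 74.5% and 25.5% of all features were. At 1.5-fold 2 members were higher, Mrps6 and Mrpl1 (27.1% of all features), and 2 lower, Mrpl43 and Mrps33 (5.27% of all features). The median log2 ratio was -0.02 over the members, -0.06 over the nuclear respiratory chain, -0.39 over cytosolic ribosomal protein genes and 0.21 over mitochondrially encoded genes. Over all features it was 0.33, so the member median lay below that of all features here as well. With size factors 17 members were lower (12.7% of all features) and none higher (10.5% of all features), with a median of -0.36, so neither the split nor the nearness to equality held under that scaling. Mrpl48 of the large subunit came next, with 121 CPM in healthy_LS-FMD and 89.3 CPM in healthy, and Mrpl20 had 149 CPM in healthy_LS-FMD and 198 CPM in healthy.

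Within a section, most members differed little between medulla and cortex. The median log2 ratio of medulla to cortex was 0.10 in PAN, 0.10 in PAN_LS-FMD, 0.02 in healthy_LS-FMD and 0.15 in healthy, over 70 members each. At 1.5-fold, 1 member was higher in the medulla of PAN (12.7% of all features), 4 in PAN_LS-FMD (7.36%), 2 in healthy_LS-FMD (21.9%) and 2 in healthy (11.7%), and no member was lower (6.53% in PAN, 9.42% in PAN_LS-FMD, 9.01% in healthy_LS-FMD and 5.12% in healthy). Mrps6 was among them in every section. Mrpl28 of the large subunit, next in the ranking by mean log2 ratio (0.62), had 37.1 CPM in medulla and 28.4 CPM in cortex of PAN, 55.5 and 32.3 CPM in PAN_LS-FMD, 47.3 and 29.8 CPM in healthy_LS-FMD and 46.9 and 29.6 CPM in healthy. Mrpl43 (mean 0.58) and Mrpl33 (0.53) followed, and Mrpl16 (-0.26), Mrpl35 (-0.25), Mrpl27 (-0.19) and Mrps25 (-0.19) had the lowest means of the 70 ranked.

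**Figure D4:**
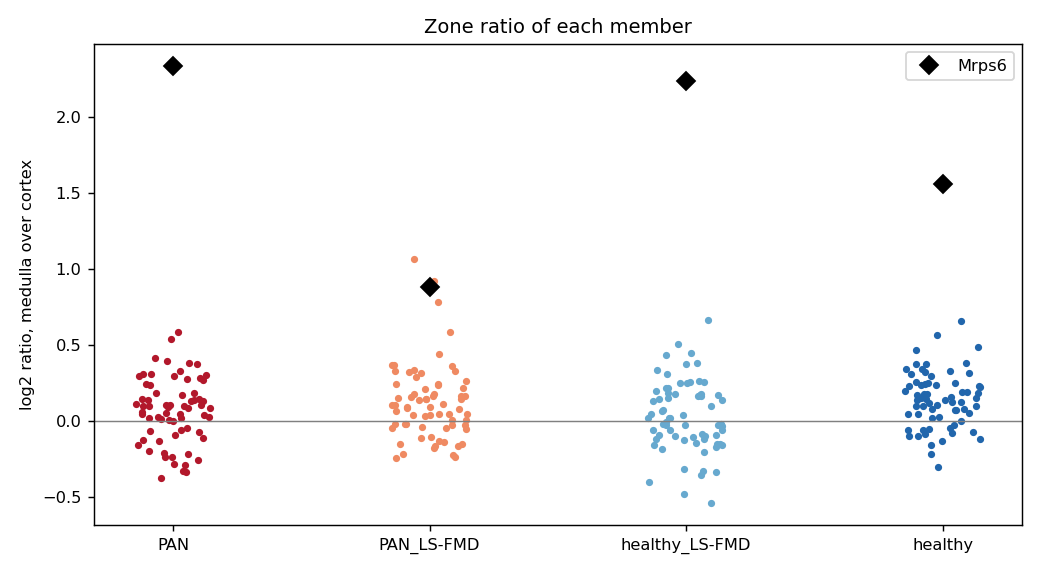
Log2 ratio of CPM in medulla over cortex (vertical axis) for each member with at least 20 UMIs in both zones of a section, 1 column per section; the black diamond is Mrps6 and the line is equality. Mrps6 lies at 2.34 in PAN, 0.88 in PAN_LS-FMD, 2.23 in healthy_LS-FMD and 1.56 in healthy, above every other member except in PAN_LS-FMD.

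Mrps6, a small subunit protein with a bacterial counterpart, had 152 CPM in PAN, 126 CPM in PAN_LS-FMD, 285 CPM in healthy_LS-FMD and 170 CPM in healthy over the whole section. The healthy_LS-FMD section was the highest, with a log2 ratio to healthy of 0.74 (0.70 to 0.79). Of the recomputed values of its distance from the member median, 6 moved further and 1 stayed near. In medulla it had 393 CPM in PAN, 182 CPM in PAN_LS-FMD, 649 CPM in healthy_LS-FMD and 306 CPM in healthy. In cortex it had 77.8, 98.6, 138 and 104 CPM in the same order of groups, and in outer stripe 129, 100, 169 and 156 CPM. Between healthy_LS-FMD and healthy it thus differed less in outer stripe than in medulla, where the log2 ratio was 1.08. Medulla exceeded cortex 5.05-fold in PAN, 1.84-fold in PAN_LS-FMD, 4.70-fold in healthy_LS-FMD and 2.94-fold in healthy. These folds depended on how zones were drawn. In that order of groups they were 4.62, 2.07, 4.31 and 2.35 with clustering at resolution 0.5. With zones given spot by spot by marker score they were 3.45, 1.59, 4.45 and 2.64. With regions taken by their leading genes they were 5.59, 1.97, 4.05 and 3.37. By CPM in medulla the order of the 4 sections was healthy_LS-FMD, PAN, healthy and PAN_LS-FMD, and the counting intervals of neighbours did not overlap. Those intervals do not cover how zones were drawn. With zones given spot by spot, the medulla had 283 CPM in PAN and 292 CPM in healthy. The region led by Klk1c9, with Calb1 among its first genes, fell in medulla in healthy (161 CPM of Mrps6). It fell in cortex in PAN and healthy_LS-FMD, and in the blood-rich zone in PAN_LS-FMD. The medullas also differed in make-up: the 5 inner medulla genes summed to 176 CPM in PAN, 32.5 CPM in PAN_LS-FMD, 583 CPM in healthy_LS-FMD and 71.4 CPM in healthy, the same order as Mrps6. The 6 proximal tubule S3 genes, which do not mark medulla, summed there to 1370 CPM in PAN, 8755 CPM in PAN_LS-FMD, 3652 CPM in healthy_LS-FMD and 5460 CPM in healthy. Their part in the differences of Mrps6 between medullas was not tested. PAN_LS-FMD against PAN gave a log2 ratio of -1.11 (-1.21 to -1.02) in medulla, the opposite sign to the member median of 0.27 there.

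By region, Mrps6 was highest in healthy_LS-FMD, at 936 CPM in a region led by Slc6a12, which carries the osmolyte betaine, and at 802 CPM in one with the collecting duct genes Aqp3 and Fxyd4. In healthy it was highest, at 554 CPM, in a region led by Spp1 and Slc4a11, and regions led by Slc12a1 had 301 and 347 CPM. In PAN the regions led by Slc4a11 and by Slc12a1 had 435 and 432 CPM. In PAN_LS-FMD regions led by Slc12a1 had 222 and 219 CPM, below the 295 CPM of a distal convoluted tubule region led by Slc12a3. The region led by Gp2 and Slc12a3 had 390 CPM in healthy_LS-FMD and 238 CPM in healthy, and one led by Klk1c9 and Slc12a3 had 138 CPM in PAN. Over all regions Mrps6 ran from 53.9 to 435 CPM in PAN, from 72.5 to 295 CPM in PAN_LS-FMD, from 89.1 to 936 CPM in healthy_LS-FMD and from 88.0 to 554 CPM in healthy. One region of the PAN_LS-FMD medulla, led by Dmrtc1c1 and Slc51b, had 105 CPM of Mrps6. With regions taken by their leading genes instead, which left it out, the medulla of PAN_LS-FMD had 209 CPM against 393 CPM in PAN. That choice also left out the healthy_LS-FMD region led by Slc6a12, and the medulla of that section then had 525 CPM instead of 649 CPM. Of the 493 PAN_LS-FMD spots then counted as medulla, 308 lay in the region led by Slc12a1 and Akr1c14. Its leading genes also included Adgrv1 and Rbp4, and Akr1c14, Adgrv1 and Rbp4 were among the leading genes of outer stripe regions in other sections. The medullas were thus still not matched in make-up.

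**Figure D5:**
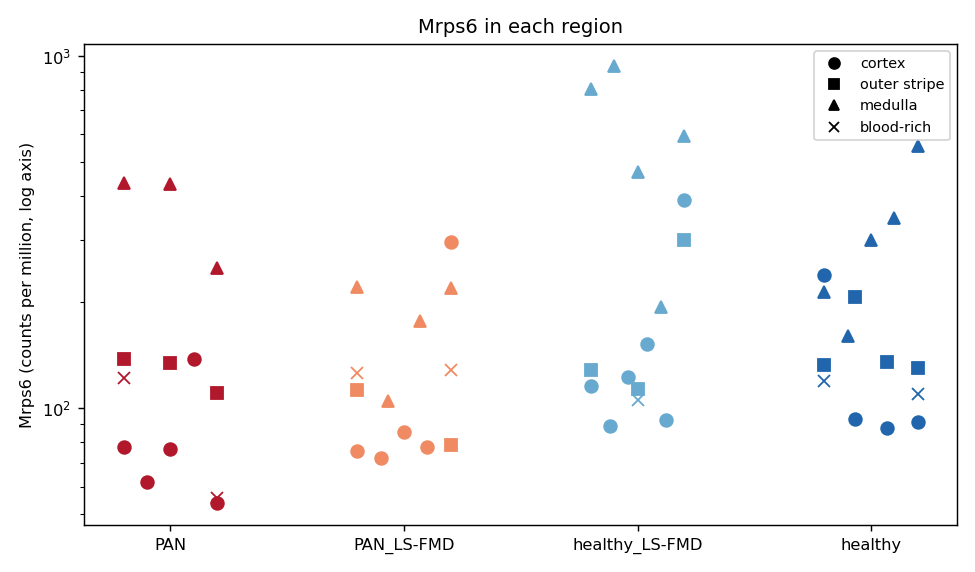
Mrps6 in CPM (vertical log axis) in each of 56 regions, 1 column per section and 1 symbol per region, with the symbol shape giving its zone. Medulla regions reach 936 CPM in healthy_LS-FMD, 435 CPM in PAN and 554 CPM in healthy, while the highest PAN_LS-FMD region, at 295 CPM, is cortical.

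Over the 56 regions, with each section centred on its own mean of log2(CPM + 1), the features most like Mrps6 included Ptger3, a prostaglandin E2 receptor (Pearson's r = 0.93), Rassf6 (0.91) and Vwa2 (0.91), among 8022 features with enough UMIs. Slc12a1 had r = 0.79, Nfat5, the transcription factor of the osmotic response, 0.70 and Akr1b1, the sorbitol-making enzyme of that response, 0.37. The other 67 members ranked had a median r of 0.21, and the highest was Mrps26 with 0.70. The measure of likeness was chosen after the pattern was known, and the regions share 4 libraries.

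Slc5a3 is not among the features of the files, and whether its RNA was counted as Mrps6 was not tested. At 1.5-fold 5 of the 6 measured osmolyte genes were higher in PAN than in healthy (44.3% of all features), while the section in which they were highest was not the same for all. Slc6a12 had 6.94 CPM in PAN, 2.26 CPM in PAN_LS-FMD, 72.0 CPM in healthy_LS-FMD and 4.11 CPM in healthy, so it was high in the same section as Mrps6. Akr1b1, which makes sorbitol, had 96.4 CPM in PAN, 32.8 CPM in PAN_LS-FMD, 39.5 CPM in healthy_LS-FMD and 32.4 CPM in healthy, so PAN alone was high over the whole section. In medulla, Akr1b1 had 98.7 CPM in PAN, 33.7 CPM in PAN_LS-FMD, 70.0 CPM in healthy_LS-FMD and 43.3 CPM in healthy. Nfat5 had 226 CPM in PAN, 88.1 CPM in PAN_LS-FMD, 192 CPM in healthy_LS-FMD and 77.3 CPM in healthy, with PAN and healthy_LS-FMD as the high pair. In medulla, Nfat5 had 302 CPM in PAN, 97.8 CPM in PAN_LS-FMD, 353 CPM in healthy_LS-FMD and 112 CPM in healthy.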

How the data were processed

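Kidney sections of 4 groups were measured, 1 section each. The deposited matrices hold raw UMI counts per gene and spot, which the authors made with Space Ranger, per the submitters' processing notes; the file headers give version 2.0.1 for healthy and 1.2.1 for the other sections. Genome build and annotation are not given in the sources used here. Spots under 500 UMIs were left out. Each section was clustered alone with scanpy 1.11.5 (2000 variable genes, 30 components, 15 neighbours, Leiden resolution 1), and clusters were joined into zones by marker scores; some assignments were weak, so whole-section values lead. No doublet caller was run, as a spot is not a cell. Counts were summed over spots and divided by all UMIs of those spots. A gene was measured at 20 UMIs over both sections and was called higher or lower at 1.5-fold with an interval excluding 1. Fold intervals are exact conditional binomial ones and level intervals exact Poisson ones, from scipy 1.17.1, tested on simulated data. A member was outlying where it lay 1.5-fold from the member median with 50 UMIs in both sections. Named were Mrps6, the 4 highest and 4 lowest members per comparison and zone ranking, outlying members, the genes that overlap them, and up to 2 highest and 2 lowest genes of other lists; others were named after their values were seen. Members and lists were chosen with earlier results of these data known. Alternatives covered scaling, totals, minimums, the fold, zones and the control section. Some genes that met a naming rule are not reported here.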

Additional observations from a re-analysis of the deposited data

How the results depend on the processing

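Of the recomputed values, 192 stayed near the reported value, 85 moved further and 2 were counted as changed in sign. The cause of each shift was not tested. Some values near 0 crossed it without being counted so. For healthy_LS-FMD against healthy the member median, -0.02 in the whole section, was 0.06 in cortex. It was 0.04 in cortical spots chosen spot by spot and 0.07 in cortical-led regions. Median-of-ratios size factors moved the member median to -0.77 for PAN against healthy, 0.61 for PAN_LS-FMD against PAN, -0.16 for PAN_LS-FMD against healthy and -0.36 for healthy_LS-FMD against healthy, and the members called to 54, 38 and 17 in the first, second and last of these. For PAN against healthy, 2 members passed 2-fold, 15 were called in outer stripe, 5 in regions led by cortical markers (median -0.19) and 15 in those led by medullary markers. The 15 in outer stripe were 14 lower and 1 higher, and the others named for this comparison were all lower. The counts in this paragraph join higher and lower members. They are given without the share of all features, so they are not read against it. For PAN_LS-FMD against PAN, 8 were called with totals without mitochondrially encoded and haemoglobin UMIs, 8 with the mean of per-spot CPM, 0 at 2-fold, 11 in outer stripe, 10 in medulla, 3 in cortical-led and 12 in medullary-led regions. For PAN_LS-FMD against healthy, 2 were called with per-spot means, in cortex, in medulla, in cortical spots chosen spot by spot and in cortical-led and medullary-led regions, and 4 in outer stripe; the median was -0.0673 both without mitochondrial and haemoglobin UMIs and in outer stripe. For healthy_LS-FMD against healthy, 0 passed 2-fold, 2 were called in cortex, with clustering at resolution 0.5 and spot by spot, and 1 in cortical-led regions. The member median minus the respiratory chain median for PAN_LS-FMD against PAN, -0.29 in the whole section, was -0.21 in medulla and -0.20 in medullary-led regions. For PAN_LS-FMD against healthy it was 0.06 in the whole section, 0.13 in cortex, 0.16 in medulla and 0.12 in cortical-led regions, and it changed sign in outer stripe (-0.0060) and with healthy_LS-FMD in place of healthy (-0.011). For healthy_LS-FMD against healthy it was 0.04 in the whole section and 0.16 in cortical-led regions. It was negative in medulla (-0.04) and in medullary-led regions (-0.02). Summed levels without mitochondrial and haemoglobin UMIs in the total were 7081 CPM (PAN), 8741 CPM (PAN_LS-FMD), 8748 CPM (healthy_LS-FMD) and 9341 CPM (healthy), and without Mrps6 they were 6703, 8301, 7990 and 8565 CPM in that order of groups. The regions led by cortical or medullary markers, the minimum of 1000 UMIs, the zones by leading genes and the control section for the difference from the respiratory chain were chosen after seeing the data. No paired analysis was possible because each group has 1 section, and no replicate could be left out. Depth limits Mrpl49, Mrps10, Mrps21l and Mrpl53, and animal, section position and group cannot be told apart. In every comparison with healthy, software version cannot be told apart from group either.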
